A study of Homo sapiens with 12 samples.

Results

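Loss of PARP3 was compared with wild type in A549 cells that had all received the G4 ligand pyridostatin. PARP3 belongs to the poly(ADP-ribose) polymerase family, is switched on by breaks in DNA and mostly adds single ADP-ribose units to its targets. G4 DNA is a folded form of guanine-rich sequence held together by stacked guanine tetrads, and pyridostatin binds and stabilizes this fold. A549 is an epithelial line from a human lung adenocarcinoma that expresses both airway and liver-type genes. The question was which transcripts differ between the genotypes when G4 DNA is stabilized.

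Of the 12 RNA-seq libraries of the series, 6 entered this comparison, 3 from wild-type A549 cells and 3 from A549 cells labelled PARP3-/-, all grown with 1 μM pyridostatin for 24 h. The mutant carries a homozygous Cas9 deletion in the first exon of PARP3 and was cloned by serial dilution. How many clones gave the RNA is not given in the sources used here. The other 6 libraries come from the same lines with vehicle (DMSO) and were used only where named. Expression is given in FPKM, a unit in which fragments are already divided by transcript length and by the mapped reads of the library. A mean of 1 FPKM or more across the 6 libraries was required, which 11864 of 25365 names met. These genes entered limma on log2(FPKM + 1), and p-values were adjusted over all 11864 genes. Log2 fold changes are those labelled PARP3-/- minus wild type on this scale, which understates the change of genes with low FPKM. "Past both thresholds" means that the adjusted p was under 0.05 and that the log2 fold change exceeded 1 in either direction. Judged from the steps in the lowest FPKM values, the libraries held about 24500000 to 30600000 reads, and wild-type replicate 2 was the deepest. The epithelial markers KRT7, KRT8, KRT18, KRT19, CDH1 and EPCAM were present in every library, with a summed level of 6912 to 7501 FPKM in those labelled PARP3-/- and 7582 to 7724 FPKM in wild type. Of the 6 immune markers, CD3E was listed at 0 throughout and CD14 alone had a mean of at least 1 FPKM in these libraries.

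PARP3 itself was examined first. It stood at 4.73, 4.71 and 4.30 FPKM in the libraries labelled PARP3-/- and 3.74, 3.57 and 4.05 FPKM in wild type. The groups did not overlap, as for 35.3% of all genes tested, and the libraries labelled PARP3-/- were the higher ones (difference of means 0.792 FPKM). An exact permutation test, two-sided, gave p = 0.1, which is the minimum for 3 libraries against 3. The limma fit gave a log2 fold change of 0.22 (SE 0.0568, adjusted p = 0.0498), a call that was lost under 11 of 13 alternatives. A gene-level FPKM counts all exons, and the deletion lies within the first, so this level does not check the genotype. Directions below therefore follow the labels of the libraries. PARP1 and PARP2, the other family members activated by DNA breaks, were not called, at -0.07 (limma adjusted p = 0.257) and -0.04 (limma adjusted p = 0.584) on the log2 scale. Of the 17 tested members of the PARP family list, TIPARP (log2 fold change 0.42, SE 0.0517, limma adjusted p = 0.00421) and PARP16 (log2 fold change 0.24, SE 0.0576, limma adjusted p = 0.0421) were also higher and none was lower. After a shift of the libraries to a common median, 2 members were higher and 1 lower, and 1 was higher when any library other than wild-type replicate 2 was left out.

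Between the genotypes 47 genes passed both thresholds, 18 higher (0.152% of the genes tested) and 29 lower (0.244%) where the label is PARP3-/-. The 6 libraries did not overlap between genotypes for any of the 47, as was the case for 35.3% of all genes tested. The 47 were picked from these same libraries, so their separation follows largely from the choice. Many of them averaged below 1 FPKM in the lower group and met the filter only through the higher group. Among the genes that rose these were PXDN, UPK1B, SPARC, SPOCK1 and UGT8. Among those that fell they were SPINK6, H19, DEFB1, CYP4F11, CES1, FGB, FGG, FILIP1, CEACAM5 and SNORA51. The gene higher by the most on the log2 scale was RRAD, which encodes a small GTPase that restrains voltage-gated calcium channels. Leaving aside small nucleolar RNAs, the largest fall was that of CPS1, the mitochondrial enzyme that feeds ammonia into the urea cycle. Values on each side of the fold threshold were close together. DPYSL3 (1.01) and UGT8 (1.04) lay just inside, and COL5A1 (0.99) and GLIPR1 (0.98) just outside.

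**Figure D1:**
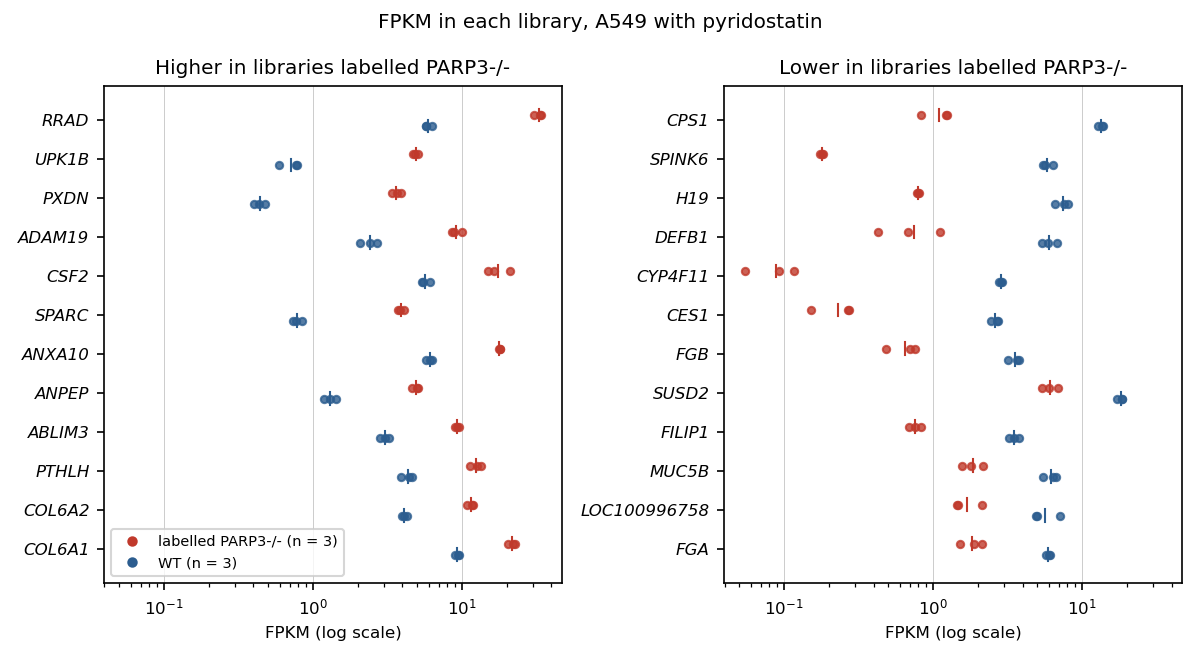
FPKM (log axis) of the 12 genes with the largest rise and the 12 with the largest fall past both thresholds, small nucleolar RNAs left out, with 1 point per library and a tick at each group mean. In every row the 3 libraries labelled PARP3-/- (red) and the 3 wild-type libraries (blue) stay apart, in genes chosen for that difference. SPINK6 and CYP4F11 are the most widely separated, 32.5 and 32.4 times higher in wild type.

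Of the 18 genes that rose, 6 encode proteins of the matrix or of its remodelling. PXDN, the peroxidase that cross-links collagen IV in basement membranes, stood at 3.40, 3.65 and 3.88 FPKM in the libraries labelled PARP3-/- and 0.436, 0.481 and 0.406 FPKM in wild type, 8.27 times as high by the means (log2 fold change 1.69, SE 0.0606, limma adjusted p = 4.85e-05). SPARC, a collagen-binding glycoprotein, stood at 3.71, 3.85 and 4.10 FPKM in the libraries labelled PARP3-/- and 0.852, 0.733 and 0.772 FPKM in wild type (log2 fold change 1.45, SE 0.0561). ADAM19, a membrane-anchored metalloprotease, stood at 8.57, 8.84 and 10.0 FPKM in the libraries labelled PARP3-/- and 2.09, 2.41 and 2.71 FPKM in wild type (log2 fold change 1.58, SE 0.0851). All 3 were low in wild type, and their replicates lay close together. The neighbouring genes for 2 chains of collagen VI, COL6A1 and COL6A2, rose by similar amounts. COL6A2 stood at 11.9, 11.7 and 10.9 FPKM in the libraries labelled PARP3-/- and 3.97, 4.12 and 4.27 FPKM in wild type (log2 fold change 1.29, SE 0.0463, limma adjusted p = 4.85e-05). COL6A1 stood at 20.5, 22.9 and 22.2 FPKM in the libraries labelled PARP3-/- and 8.997, 9.42 and 9.60 FPKM in wild type (log2 fold change 1.14, SE 0.0487). SPOCK1, a secreted proteoglycan, was at or below 0.42 FPKM in every wild-type library and above 1.8 FPKM in every library labelled PARP3-/- (log2 fold change 1.13, SE 0.0723).

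RRAD stood at 34.0, 33.7 and 30.5 FPKM in the libraries labelled PARP3-/- and 5.72, 6.35 and 5.77 FPKM in wild type, 5.51 times as high (log2 fold change 2.28, SE 0.0569, limma adjusted p = 2.89e-05). UPK1B, a tetraspanin of the urothelial plaque, stood at 4.72, 5.09 and 4.87 FPKM in the libraries labelled PARP3-/- and 0.593, 0.772 and 0.782 FPKM in wild type (log2 fold change 1.78, SE 0.0632). ANPEP, the surface aminopeptidase CD13, stood at 4.65, 4.98 and 5.05 FPKM in the libraries labelled PARP3-/- and 1.44, 1.31 and 1.20 FPKM in wild type (log2 fold change 1.35, SE 0.0578). Neither passed 1.5 FPKM in any wild-type library. NT5E, the ectoenzyme CD73 that makes adenosine, rose by 1.06 on the log2 scale and MUC3A, a membrane mucin, by 1.06, although MUC3A fell below the fold threshold without mutant replicate 3 (0.98). CSF2, the cytokine GM-CSF, stood at 21.2, 16.4 and 15.1 FPKM in the libraries labelled PARP3-/- and 5.46, 5.45 and 6.11 FPKM in wild type (log2 fold change 1.46, SE 0.120). PTHLH, the parathyroid hormone-related protein, stood at 13.5, 11.4 and 12.7 FPKM in the libraries labelled PARP3-/- and 4.66, 4.43 and 3.90 FPKM in wild type (log2 fold change 1.35, SE 0.0774). CSF2 had the largest standard error of the genes that rose. ABLIM3, an actin-binding LIM protein, stood at 9.34, 9.57 and 9.002 FPKM in the libraries labelled PARP3-/- and 3.04, 2.83 and 3.26 FPKM in wild type (log2 fold change 1.35, SE 0.0511). ANXA10, an annexin, stood at 18.0, 18.0 and 17.6 FPKM in the libraries labelled PARP3-/- and 6.34, 6.14 and 5.75 FPKM in wild type (log2 fold change 1.42, SE 0.0406). The remaining risers were RASSF10 (1.10), UGT8 (1.04), which makes galactosylceramide, and DPYSL3 (1.01), a cytoskeletal regulator. DPYSL3 did not pass the fold threshold when libraries were shifted to a common median (0.98) or, by a margin that rounds to 1.00, without wild-type replicate 3.

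Of the genes that fell, SPINK6, an inhibitor of kallikrein proteases, stood at 0.175, 0.180 and 0.183 FPKM in the libraries labelled PARP3-/- and 5.63, 5.52 and 6.36 FPKM in wild type, 32.5 times lower in the libraries labelled PARP3-/- (log2 fold change -2.53, SE 0.0626, limma adjusted p = 2.89e-05). DEFB1, the antimicrobial peptide beta-defensin 1, stood at 0.683, 1.12 and 0.427 FPKM in the libraries labelled PARP3-/- and 5.36, 5.93 and 6.75 FPKM in wild type (log2 fold change -2.02, SE 0.151). MUC5B, a gel-forming airway mucin, stood at 1.56, 1.81 and 2.17 FPKM in the libraries labelled PARP3-/- and 6.42, 5.50 and 6.68 FPKM in wild type (log2 fold change -1.34, SE 0.0986). SLPI, an antiprotease of airway fluid, fell by 1.15 on the log2 scale. CPS1 stood at 0.837, 1.22 and 1.25 FPKM in the libraries labelled PARP3-/- and 13.7, 13.8 and 12.9 FPKM in wild type, 12.2 times lower (log2 fold change -2.79, SE 0.0855, limma adjusted p = 3.33e-05). CYP4F11, a cytochrome P450 that hydroxylates fatty acids, stood at 0.0548, 0.117 and 0.0923 FPKM in the libraries labelled PARP3-/- and 2.86, 2.90 and 2.79 FPKM in wild type (log2 fold change -1.82, SE 0.0563). CES1, a carboxylesterase, stood at 0.272, 0.269 and 0.152 FPKM in the libraries labelled PARP3-/- and 2.72, 2.47 and 2.68 FPKM in wild type (log2 fold change -1.56, SE 0.0681). Both enzymes were below 0.3 FPKM in every library labelled PARP3-/-. CYP1B1 (-1.13), PDE3A (-1.08), PDK4 (-1.06), which restrains pyruvate dehydrogenase, and the glucose transporter gene SLC2A3 (-1.16) fell as well.

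The 3 fibrinogen chains, which are encoded side by side on chromosome 4 and made mainly by liver, fell together. FGB stood at 0.756, 0.706 and 0.483 FPKM in the libraries labelled PARP3-/- and 3.77, 3.18 and 3.69 FPKM in wild type (log2 fold change -1.47, SE 0.0885). FGA stood at 1.53, 2.12 and 1.88 FPKM in the libraries labelled PARP3-/- and 6.02, 5.73 and 6.08 FPKM in wild type (log2 fold change -1.29, SE 0.0816). FGG stood at 0.120, 0.458 and 0.0752 FPKM in the libraries labelled PARP3-/- and 1.94, 1.73 and 2.01 FPKM in wild type (log2 fold change -1.26, SE 0.125). Each chain was lower in every library labelled PARP3-/- than in any wild-type library, as were all genes that fell past both thresholds.

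H19, an imprinted long non-coding RNA, stood at 0.799, 0.803 and 0.781 FPKM in the libraries labelled PARP3-/- and 6.63, 8.07 and 7.63 FPKM in wild type (log2 fold change -2.23, SE 0.0706, limma adjusted p = 3.41e-05). SUSD2, a membrane protein, stood at 5.41, 6.06 and 6.90 FPKM in the libraries labelled PARP3-/- and 17.3, 18.6 and 18.7 FPKM in wild type (log2 fold change -1.43, SE 0.0792). FILIP1, a filamin-binding protein, stood at 0.689, 0.828 and 0.760 FPKM in the libraries labelled PARP3-/- and 3.77, 3.25 and 3.49 FPKM in wild type (log2 fold change -1.36, SE 0.0644). AQP3 (-1.27), a channel for water and glycerol, FXYD2 (-1.22), a subunit of the sodium pump, CEACAM5 (-1.17), a surface adhesion glycoprotein, and VCAN (-1.15), a matrix proteoglycan, fell as well. CPLX2, which clamps synaptic vesicle fusion, stood at 103, 106 and 106 FPKM in the libraries labelled PARP3-/- and 224, 235 and 227 FPKM in wild type (log2 fold change -1.12, SE 0.0304). VAMP8 (-1.08), a protein of vesicle fusion, NTRK3 (-1.12), a neurotrophin receptor, and RTN4RL2 (-1.08), a homologue of the Nogo receptor, were lower too.

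The remaining 4 genes that fell are less certain. NPY4R (-1.18) and LOC100996758 (-1.30), which RefSeq names NPY4R2, are near-identical copies of one receptor gene between which reads could have been split. LOC100996758 stood at 2.13, 1.48 and 1.45 FPKM in the libraries labelled PARP3-/- and 4.96, 7.11 and 4.91 FPKM in wild type. For the small nucleolar RNA SNORA51 the table gives 0 in each library labelled PARP3-/- but 15.3, 6.52 and 15.8 FPKM in wild type, which after correction for depth are 2, 1 and 2 times its smallest value. With vehicle it was detected in both genotypes, at 14.1, 8.42 and 9.41 FPKM in mutant and 24.7, 23.4 and 26.2 FPKM in wild-type libraries. SNORA63 was at 42.2, 22.0 and 22.0 FPKM against 82.8, 52.8 and 78.0 FPKM and lost its call under 6 of 14 alternatives. Of the 47 genes, 44 kept their call under each alternative counted here, the exceptions being SNORA63, DPYSL3 and MUC3A. These were 13 alternatives, or 14 where the gene also passed a minimum of 5 FPKM, with the fold threshold held at 1. A limma test against a fold threshold of 1 was not counted among them, and only 9 genes (4 higher, 5 lower) passed it.

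**Figure D2:**
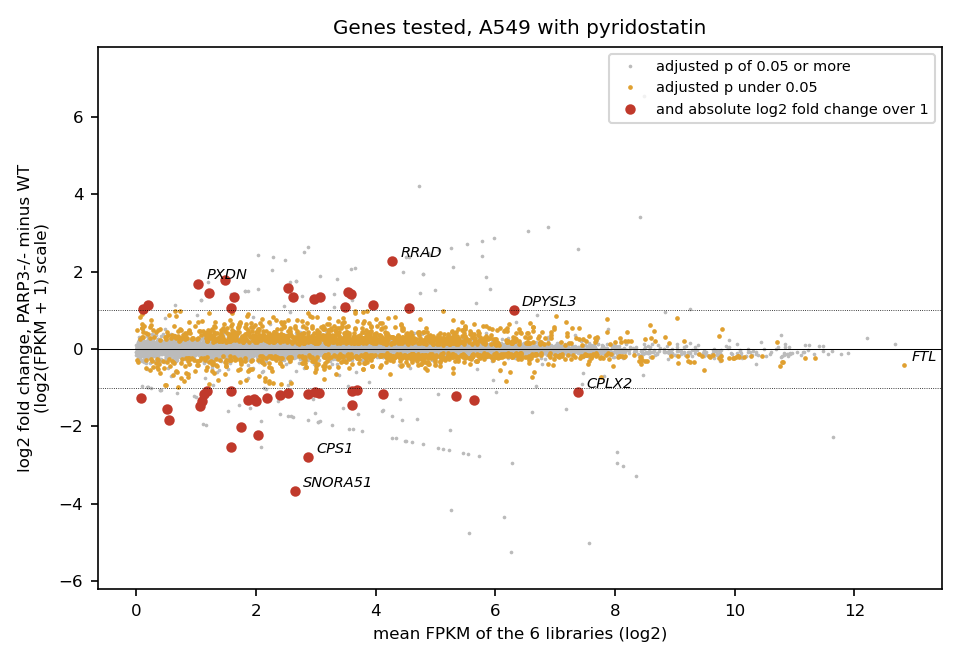
Log2 fold change (labelled PARP3-/- minus wild type, log2(FPKM + 1) scale) of each of the 11864 genes tested against its mean FPKM over the 6 libraries (log2). Genes past both thresholds (red) lie at low and middle levels, with CPLX2 and DPYSL3 the only ones above 50 FPKM, while most genes at an adjusted p under 0.05 (orange) lie close to 0. Grey points are genes that were not called.

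The same contrast was available in the 6 vehicle libraries, which the rule for these genes did not use. All 47 genes had the same direction there, as had 69.1% of all genes tested. Of the 47, 45 had an adjusted p under 0.05 from limma with vehicle, against 4.57% of all genes tested. With vehicle 44 of the 11864 genes passed both thresholds, and 39 of these were among the 47. RRAD had a log2 fold change of 2.06 with vehicle, UPK1B of 1.88, CPS1 of -2.64 and SPINK6 of -2.57. Those of the 47 not called with vehicle were SNORA63 (-0.14 with vehicle, limma adjusted p = 0.942) and LOC100996758 (-0.82, limma adjusted p = 0.117). A difference between the genotype effects with and without pyridostatin was tested by the interaction term in all 12 libraries. In limma no gene passed an adjusted p of 0.05. Of the 11864 genes tested, 520 had an unadjusted p under 0.05, 6 of them among the 47. Those with the smallest p were SNORA51 (interaction -2.49, unadjusted p = 4.60e-05, adjusted p = 0.546), NTRK3 (-0.20, 0.0278), RTN4RL2 (0.38, 0.0286), RRAD (0.22, 0.0382) and PDK4 (-0.20, 0.0394). Apart from the small nucleolar RNAs, no interaction among the 47 genes exceeded 0.48 on the log2 scale.

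**Figure D3:**
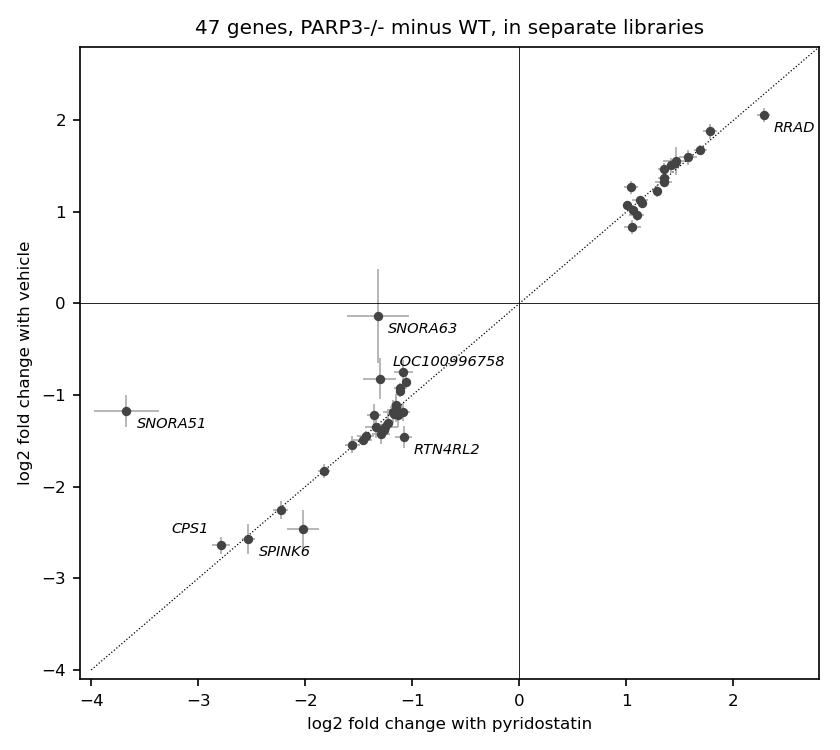
Log2 fold change (labelled PARP3-/- minus wild type) of the 47 genes past both thresholds with pyridostatin, with pyridostatin on the x axis and with vehicle on the y axis, measured in separate libraries. Bars are standard errors from limma and the dotted line marks equal values. SNORA51 and SNORA63 lie farthest from it, and the messenger RNAs lie near it.

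Regardless of fold change, 1627 genes passed the adjusted p threshold, 999 higher (8.42% of the genes tested) and 628 lower (5.29%). Most of these differences were small. Their median absolute log2 fold change was 0.28, and 1448 of them were below 0.58. The share that was higher, 61.4%, was 54.8% after quantile normalization and 50.2% when libraries were shifted to a common median. The count depended on single libraries. It was 724 without wild-type replicate 1, 919 without replicate 3, and 1078, 776 and 900 without mutant replicates 1, 2 and 3, but 1684 without wild-type replicate 2. Of the 1627 genes, 1558 (95.8%) had the same direction with vehicle, as had 69.1% of all genes tested. With vehicle 542 genes had an adjusted p under 0.05, a count that was 1167 without wild-type vehicle replicate 2 and 163 to 236 without any other single vehicle library, and 469 of them were also among the 1627.

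In absolute amount, the largest differences lay among very abundant transcripts. FTL, the light chain of the iron store ferritin, stood at 6005, 6034 and 6638 FPKM in the libraries labelled PARP3-/- and 7891, 8331 and 8551 FPKM in wild type (log2 fold change -0.41, SE 0.0593, limma adjusted p = 0.00754). Its call was lost under 3 of 14 alternatives, among them quantile normalization, where the log2 fold change was -0.09. AKR1B10, an aldo-keto reductase, stood at 1465, 1464 and 1464 FPKM in the libraries labelled PARP3-/- and 1958, 1971 and 2008 FPKM in wild type (log2 fold change -0.43, SE 0.0314, limma adjusted p = 5.81e-04). ALDH1A1, which makes retinoic acid, stood at 1546, 1586 and 1606 FPKM in the libraries labelled PARP3-/- and 1956, 2032 and 1974 FPKM in wild type (log2 fold change -0.33, SE 0.0353). KRT18 (-0.24) and the ribosomal protein gene RPL37A (-0.32) completed the falls, and both lost their call under 6 or 7 of 14 alternatives. Of the transcripts that gained most, CRIP1, a small LIM protein, stood at 993, 1043 and 1092 FPKM in the libraries labelled PARP3-/- and 704, 716 and 750.5 FPKM in wild type (log2 fold change 0.53, SE 0.0468, limma adjusted p = 0.00114). MT2A, a metallothionein that binds zinc and copper, stood at 544, 724 and 749 FPKM in the libraries labelled PARP3-/- and 359, 387 and 397 FPKM in wild type (log2 fold change 0.80, SE 0.122). CXCL5, a neutrophil-attracting chemokine, stood at 480.3, 450.0 and 469.9 FPKM in the libraries labelled PARP3-/- and 292, 351 and 269 FPKM in wild type (log2 fold change 0.63, SE 0.0948). The intermediate filament genes VIM (0.33) and KRT7 (0.19) were also higher, KRT7 with a call lost under 5 of 14 alternatives.

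Gene lists were then described by how many tested members were higher or lower at an adjusted p under 0.05, to be read against 8.42% and 5.29% of all genes. NF-kB targets and cytokines stood highest. This factor is held in the cytoplasm by IkB proteins and turns on chemokines, survival genes and its own inhibitors. Of 23 tested members, 16 (69.6%) were higher and none lower, and the median was 0.30 on the log2 scale, where that of all genes was 0.01. Among the cytokines 8 of 12 were higher, and among feedback and survival genes 8 of 11. CXCL8, the chemokine interleukin-8, stood at 125, 115 and 114 FPKM in the libraries labelled PARP3-/- and 75.6, 71.6 and 72.7 FPKM in wild type (log2 fold change 0.68, SE 0.0444, limma adjusted p = 3.94e-04). IL1B, the cytokine interleukin-1 beta, stood at 1.98, 1.53 and 1.55 FPKM in the libraries labelled PARP3-/- and 0.558, 0.249 and 0.547 FPKM in wild type (log2 fold change 0.89, SE 0.115). CCL2 rose by 0.43, TNFAIP2 by 0.29 and the inhibitor gene TNFAIP3 by 0.43 on the log2 scale. Counts were 12 to 17 with 1 library left out, and 16 and 15 after quantile normalization and the median shift. With vehicle the median was 0.34. The immune marker CD14 was higher as well (0.48), and the summed level of the 6 immune markers was 4.65 to 4.98 FPKM in the libraries labelled PARP3-/- and 2.92 to 3.62 FPKM in wild type. PTPRC, the defining marker of white blood cells, was listed at 0.00738 FPKM in 1 library and at 0 in the other 5, and the part of immune markers in these values was not tested.

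Matrix lists leaned the same way. Of 17 basement membrane genes, 10 were higher and 2 lower (median log2 fold change 0.25), and of 21 interstitial and matricellular genes, 12 were higher and 2 lower (median 0.28). All 4 tested collagen IV chains rose, COL4A6 by 0.55, COL4A1 by 0.39, COL4A2 by 0.29 and COL4A5 by 0.25, as did 5 of 6 fibrillar and type VI collagen genes, COL5A1 by 0.99 among them. VCAN (-1.15), SPP1 (-0.84), which encodes osteopontin, NID2 (-0.32) and LAMB1 (-0.16) went the other way. All 5 tested members of the plasminogen system, which activates plasmin at the cell surface, rose. PLAU, the urokinase that cleaves plasminogen, stood at 183, 187 and 186 FPKM in the libraries labelled PARP3-/- and 125, 126 and 129 FPKM in wild type (log2 fold change 0.55, SE 0.0271, limma adjusted p = 1.34e-04). SERPINE2, a protease inhibitor, rose by 0.56. Among all 19 matrix proteases and inhibitors 9 were higher, and ADAMTS9 was lower (-0.33). Of 9 integrin genes, ITGA2 (0.71), ITGA5 (0.44), ITGA3 (0.28) and ITGB4 (0.21) were higher, ITGB4 with a call lost under 9 of 14 alternatives. Without wild-type replicates 1 or 3 or mutant replicates 2 or 3, 3 of the 9 were. The basement membrane count was 5 without wild-type replicate 1 or mutant replicate 2, and NID2 and LAMB1 were not both called without any single library. The interstitial count stayed between 10 and 13.

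Mesenchymal markers leaned one way and epithelial genes both ways. Of 9 mesenchymal markers 6 were higher and none lower, including CDH2 (0.54), which encodes N-cadherin, TAGLN (0.59) and VIM. Without wild-type replicate 2 or mutant replicates 1 or 3, 3 were higher, and without any other single library 4 were. After quantile normalization 5 were higher and after the median shift 4. Of 25 epithelial junction and keratin genes, 6 were higher and 7 lower. CDH1, which encodes E-cadherin, stood at 10.9, 10.9 and 11.9 FPKM in the libraries labelled PARP3-/- and 16.7, 16.4 and 16.1 FPKM in wild type (log2 fold change -0.51, SE 0.0430, limma adjusted p = 9.08e-04). EPCAM (-0.48), CLDN2 (-0.33) and TJP3 (-0.41) were lower. KRT19, a simple-epithelial keratin, stood at 165, 168 and 168.6 FPKM in the libraries labelled PARP3-/- and 88.7, 94.7 and 92.9 FPKM in wild type (log2 fold change 0.85, SE 0.0333, limma adjusted p = 5.60e-05). CLDN3 (0.43) and CTNNB1 (0.22) were higher. The count of higher members was 2 without wild-type replicate 1 or mutant replicates 2 or 3, and 3 without wild-type replicate 3, and the count of lower members was 4 without wild-type replicates 1 or 3 or mutant replicates 1 or 2. COL1A1, the only fibroblast marker tested, was higher (0.38), a call lost under 6 of 13 alternatives, whereas the fibroblast markers DCN, PDGFRA, COL3A1 and LUM all had means below 1 FPKM. The summed level of these 5 markers was 1.68 to 2.06 FPKM in the libraries labelled PARP3-/- and 0.840 to 1.08 FPKM in wild type, and its part in the matrix values was not tested. The 4 endothelial markers summed to 0.298 to 0.375 FPKM against 0.116 to 0.174 FPKM, and the 4 neural markers to 10.0 to 10.2 FPKM against 9.87 to 10.2 FPKM.

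Immediate early and ERK feedback genes, which follow growth factor signalling within minutes, had 7 of 21 members higher and none lower (median 0.22). FOSL1 rose by 0.49, SPRY2 by 0.66, DUSP6 by 0.47 and PHLDA1 by 0.43. The count was 4 without mutant replicate 2. Promoters were searched in windows of the 250 bases before the RefSeq start (GRCh38.p14), which was found for 9342 of the genes tested. TGANTCA is the site of AP-1 factors such as FOSL1. On either strand it was found in 6.08% of windows of the genes higher at an adjusted p under 0.05. For the lower genes the share was 3.98%, for all genes tested 3.62% and for all RefSeq promoter windows, tested or not, 6.60%. None of the 14 windows found for genes past both thresholds that rose held it. The part of AP-1 factors in these values was not tested. TGF-beta and YAP targets had 9 of 28 higher and 5 lower. PMEPA1 (0.57), AXL (0.50), LTBP2 (0.60) and SMAD3 (0.25) were higher. The lower members were BMP4 (-0.49), INHBB (-0.53) and the ID genes ID1, ID2 and ID3 (-0.16, -0.39 and -0.32), which BMP signals induce. Lower members numbered 3 without wild-type replicates 1 or 2 or mutant replicate 3.

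NRF2 targets stood at the other end. NRF2 is a transcription factor that KEAP1 holds down in unstressed cells, and A549 cells carry a KEAP1 mutation, so that its targets are abundant in this line. Of 31 tested targets, 21 (67.7%) were lower and 1, ABCC3 (0.16, a call lost under 7 of 14 alternatives), was higher, with a median log2 fold change of -0.23 with pyridostatin and -0.23 with vehicle. HMOX1, the haem-degrading oxygenase, stood at 76.1, 80.7 and 81.2 FPKM in the libraries labelled PARP3-/- and 117, 126 and 119.7 FPKM in wild type (log2 fold change -0.60, SE 0.0404, limma adjusted p = 4.34e-04). NQO1, a quinone reductase, stood at 532, 543 and 543 FPKM in the libraries labelled PARP3-/- and 665, 674 and 687 FPKM in wild type (log2 fold change -0.32, SE 0.0295, limma adjusted p = 0.00125). AKR1C1 fell by 0.37 on the log2 scale. In the group for quinone, aldo-keto and haem metabolism 10 of 13 were lower, in glutathione and thioredoxin metabolism 7 of 9, and in NADPH supply 3 of 5. Each single change was under 0.61 on the log2 scale. The count of lower members was 17 after quantile normalization and 22 after the median shift. It was 12 without mutant replicate 2 and 14 to 21 without any other single library.

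TGACNNNGC is the core of the antioxidant response element to which NRF2 binds. On either strand it was found in 5 of 15 windows (33.3%) of the NRF2 targets that were lower, in 6 of 21 (28.6%) of all NRF2 targets tested and in 12.3% of windows of all genes tested. GCLM (chr1:93909431-93909680, minus strand), the modifier subunit of the enzyme that starts glutathione synthesis, stood at 42.8, 42.9 and 44.1 FPKM in the libraries labelled PARP3-/- and 48.9, 55.5 and 49.0 FPKM in wild type (log2 fold change -0.23, SE 0.0536). TXNRD1 (chr12:104215529-104215778, plus strand), a thioredoxin reductase, stood at 359, 363 and 366 FPKM in the libraries labelled PARP3-/- and 421, 422 and 417 FPKM in wild type (log2 fold change -0.21, SE 0.0264). The groups did not overlap for either gene, as for 35.3% of all genes tested. Both windows hold the core, on the opposite strand in GCLM and on the strand of the gene in TXNRD1. Windows are printed 5′ to 3′ on the strand of the gene, in lower case with matches to a searched motif in capitals. The first run of capitals in GCLM is a guanine-run motif, described further on, and the second is the core.
GCLM: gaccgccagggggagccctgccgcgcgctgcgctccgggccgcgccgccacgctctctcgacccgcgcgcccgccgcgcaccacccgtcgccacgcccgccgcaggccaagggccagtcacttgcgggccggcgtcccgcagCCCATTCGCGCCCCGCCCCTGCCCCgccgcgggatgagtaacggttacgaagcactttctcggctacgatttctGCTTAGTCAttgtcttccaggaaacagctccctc
TXNRD1: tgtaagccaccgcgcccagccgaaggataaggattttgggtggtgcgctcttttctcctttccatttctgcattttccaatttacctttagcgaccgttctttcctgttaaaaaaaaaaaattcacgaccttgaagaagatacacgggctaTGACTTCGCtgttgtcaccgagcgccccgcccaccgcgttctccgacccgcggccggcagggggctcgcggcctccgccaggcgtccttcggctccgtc

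ATF4 and unfolded protein response genes, which respond to amino acid shortage and misfolded protein, had 10 of 31 lower and none higher, 8 of them among the 17 ATF4 targets. DDIT4 (-0.59), PHGDH (-0.36), SLC3A2 (-0.31) and SLC7A5 (-0.30) led. The count was 5 without mutant replicate 2, and 6 without wild-type replicates 1 or 3 or mutant replicate 1. Glycolysis and hypoxia genes had 9 of 29 lower and 3 higher, with CA12 (-0.72), SLC2A3, ADM (-0.22) and VEGFA (-0.22) lower and P4HA2 (0.36), ENO2 (0.18) and SLC16A3 (0.23) higher. There, 4 were lower without wild-type replicate 1 or mutant replicate 1 and 5 without mutant replicate 2, and 1 was higher without wild-type replicates 1 or 3 or mutant replicates 2 or 3. Ribosomal proteins had 14 of 77 lower and none higher (median -0.14), led by RPL31 (-0.29), RPL6 (-0.21), RPL37A and RPS27A (-0.24). That count was 6 after quantile normalization, 24 without wild-type replicate 2, 4 without wild-type replicate 3, 1 without mutant replicate 3 and 0 without wild-type replicate 1 or mutant replicates 1 or 2. Oxidative phosphorylation had 8 of 45 lower and none higher (median -0.10), with ATP5G3 (-0.24), NDUFS1 (-0.23), COX7C (-0.22) and ATP5B (-0.18) first. It had 12 lower without wild-type replicate 2, 5 without wild-type replicate 3 or mutant replicate 1, 4 after quantile normalization and 2 without the other libraries.

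**Figure D4:**
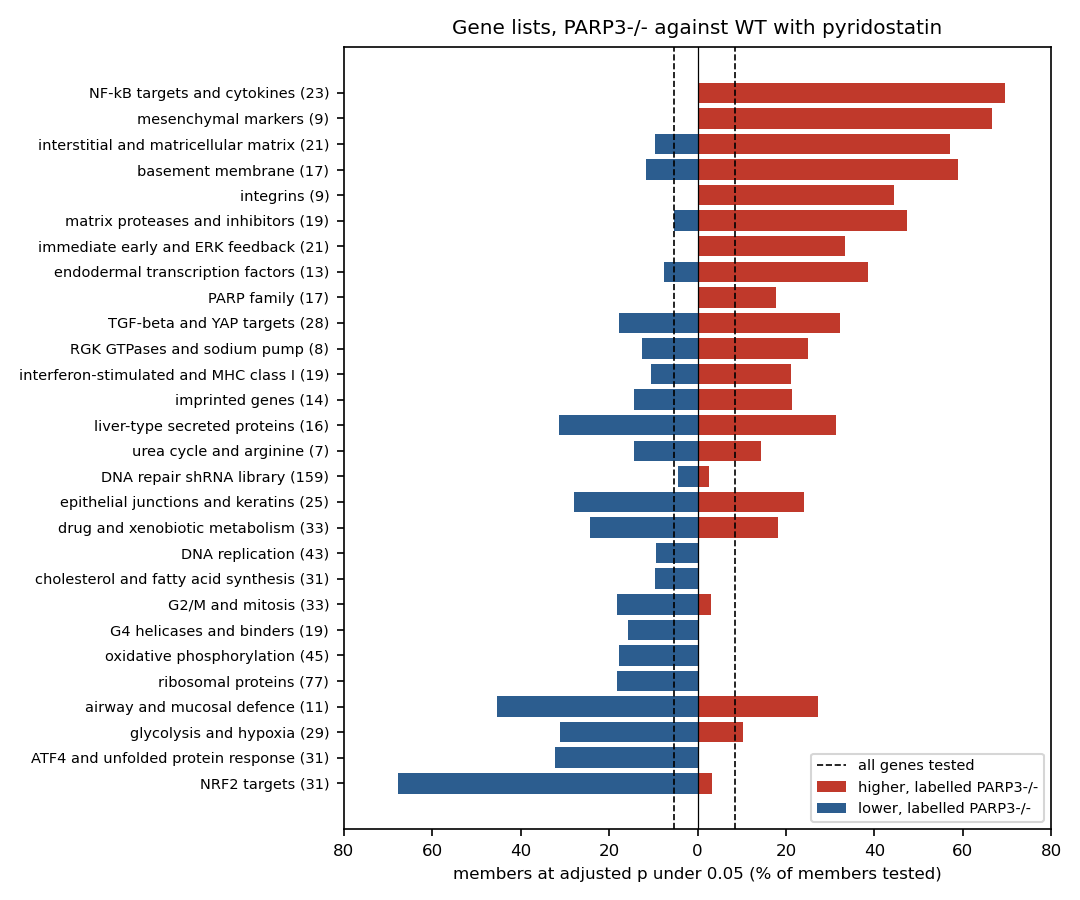
Share of the tested members of each list shown (number tested in parentheses) at an adjusted p under 0.05, higher (red, to the right) or lower (blue, to the left) in the libraries labelled PARP3-/-. Not every list is drawn, and the markers of other cell types are among those left out. Dashed lines mark the shares over all genes tested, 8.42% and 5.29%. NF-kB targets and mesenchymal, matrix and basement membrane genes extend farthest to the right, and NRF2 targets, at 67.7%, farthest to the left.

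The study also screened an shRNA library against DNA repair genes, and of its 159 targets that were tested here, 4 were higher (2.52%) and 7 lower (4.403%), both below the shares over all genes, and none passed both thresholds. The nuclease gene TREX1 (0.30), POLL (0.19) and PARP3 were among the higher ones. XRCC5 (-0.20), which encodes the Ku80 subunit of the end-joining factor Ku, SMC2 (-0.19), SMC4 (-0.14) and RAD51B (-0.29) led the lower ones. Without wild-type replicate 2 these counts were 3 and 9, and without any other single library at most 2 were higher and at most 3 lower. Of 19 helicases and other proteins that unwind or bind G4 DNA, none was higher and 3 (15.8%) were lower, NCL (-0.30), the helicase gene DHX9 (-0.18) and CNBP (-0.12), and 1 was called without wild-type replicates 1 or 3 or mutant replicates 1 or 2. DNA replication had 4 of 43 (9.30%) lower, ORC2 (-0.21), RRM1 (-0.14), ORC1 (-0.15) and RRM2 (-0.13), but 0 without wild-type replicate 1, 1 without mutant replicates 2 or 3 and 2 without wild-type replicate 3 or mutant replicate 1. G2/M and mitosis had 6 of 33 (18.2%) lower, among them PRC1 (-0.17), NDC80 (-0.19), CENPE (-0.22) and BUB1B (-0.14), and AURKB (0.19) higher. The lower members numbered 10 without wild-type replicate 2 and 0 or 1 without any other single library, and the list's median was -0.11 with pyridostatin and -0.01 with vehicle.

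The smaller lists held single strong members among quieter ones. In airway and mucosal defence 3 of 11 were higher and 5 lower. TFF1 (0.72), LCN2 (0.55), an iron-siderophore carrier, and the lipid transporter gene ABCA3 (0.20) rose while SPINK6, DEFB1, MUC5B and SLPI fell. In liver-type secreted proteins 5 of 16 were higher and 5 lower. The complement genes C3 (0.47), CFI (0.52) and C1R (0.22) and the antiprotease gene SERPINA3 (0.26) rose, whereas the fibrinogens and APOC1 (-0.39) fell. There 3 were higher without wild-type replicate 1. Endodermal transcription factors had SOX2 (0.59), NR5A2 (0.31), FOXA1 (0.35) and SOX9 (0.34) among 5 of 13 higher, of which 1 to 3 were called without any library other than wild-type replicate 2, and CEBPA (-0.23) lower. Of 33 drug and xenobiotic metabolism genes, 6 were higher and 8 lower. ALDH1A3 (0.35) and CYP4V2 (0.31) rose beside ANPEP and UGT8, and CYP4F3 (-0.65) fell beside CYP4F11, CES1 and CYP1B1. The lower members numbered 5 without wild-type replicate 3 or mutant replicate 1. Among 14 imprinted genes GRB10 (0.67), MEG3 (0.55) and PHLDA2 (0.36) were higher, and H19 and PEG10 (-0.31) lower, and 1 was higher without wild-type replicate 1 or mutant replicate 2. In the urea cycle CPS1 fell and OAT (0.18) was higher, a call kept only without wild-type replicate 2 when single libraries were left out, and the other 5 of 7 were not called. GEM (0.41), the other RGK GTPase tested, rose with RRAD, and among 6 sodium pump genes only FXYD2 was called. Interferon and MHC genes had IFITM1, IFITM2, IFITM3 (0.41, 0.49 and 0.48) and B2M (0.20) higher, and 2 lower, OAS1 (-0.31) among them, of 19 tested, with 2 higher when any mutant replicate was left out. Cholesterol and fatty acid synthesis had 3 of 31 lower, SCD (-0.16) among them with a call lost under 7 of 14 alternatives, and none higher. Without any single library 2 were lower.

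The share of called genes was then described by chromosome. Genes were placed by name with RefSeq (GRCh38.p14), which located 11759 of the 11864. On chromosome 17, 130 of 746 genes (17.4%) were higher and 12 (1.61%) lower, and the median log2 fold change was 0.07 with pyridostatin and 0.08 with vehicle. None of them passed both thresholds. KRT19, with 0.85, had the largest rise of those called there, and the median of the 130 was 0.26. After the median shift 13.5% were higher and 2.14% lower. With 1 library left out, 7.24% to 14.3% were higher on chromosome 17 against 4.03% to 8.83% of all genes. The 130 were 54 without mutant replicate 2, 55 without wild-type replicate 1, and 66 and 69 without wild-type replicate 3 and mutant replicate 3. With vehicle the share called higher did not stand out, at 4.96% on chromosome 17, 4.96% on chromosome 15 and 4.73% on chromosome 5. On chromosome 2, 78 of 764 genes (10.2%) were lower with pyridostatin and 57 (7.46%) higher. Its lower genes include CPS1, XRCC5, NCL, EPCAM, ORC2, RRM2, ATP5G3, NDUFS1, RPL31, RPL37A and RPS27A, several of them the leading members of the lists above. Lower genes did not outnumber higher ones there in every setting. Without wild-type replicate 1 there were 25 lower and 32 higher, without replicate 2 71 and 58, and without replicate 3 38 and 40. Without mutant replicates 1, 2 and 3 there were 41 lower and 41 higher, 29 and 28, and 35 and 30. The lower share with a library left out was 3.27% to 9.29% there and 2.07% to 5.36% over all genes.

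Chromosome 5 held 6 of the 18 genes past both thresholds that rose, ABLIM3, ADAM19, CSF2, DPYSL3, SPARC and SPOCK1, and 4.68% of the placed genes. It also held 3 genes that fell past both thresholds, CPLX2, SPINK6 and VCAN, and SPINK6 lies between DPYSL3 and ABLIM3. Of the 550 tested genes on chromosome 5, 57 (10.4%) were higher and 33 (6%) lower at an adjusted p under 0.05. The median log2 fold change of the 550 was 0.004. Runs of 41 neighbouring tested genes were compared after these values were seen, so what follows is a description. A run that ends at NIPAL4 on chromosome 5 had 17 genes higher and none lower, against a median of 3 and 2 over all runs. ABLIM3 and SPARC lie in it, and so do NIPAL4 (0.86), SGCD (0.54) and ATOX1 (0.53). Its genes did not move as a block, since RPS14 (-0.01), TCOF1 (-0.02) and LARP1 (-0.05) stayed near 0 among them. The next 4 runs without overlap were all on chromosome 17, from RPH3AL to TAX1BP3 (17 higher), COPZ2 to ABCC3 (16), EXOC7 to SGSH (14) and RARA to WNK4 (13), with none lower in any of them. Of the runs with most lower genes, 4 of 5 were on chromosome 2, and the one that ends at PNKD had 11 lower and 2 higher. The median log2 fold changes of the first chromosome 5, chromosome 17 and chromosome 2 runs were 0.12, 0.12 and -0.11 with pyridostatin and 0.07, 0.13 and -0.08 with vehicle. The labels name 1 line per genotype, so a difference between the lines and an effect of PARP3 loss cannot be told apart.

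**Figure D5:**
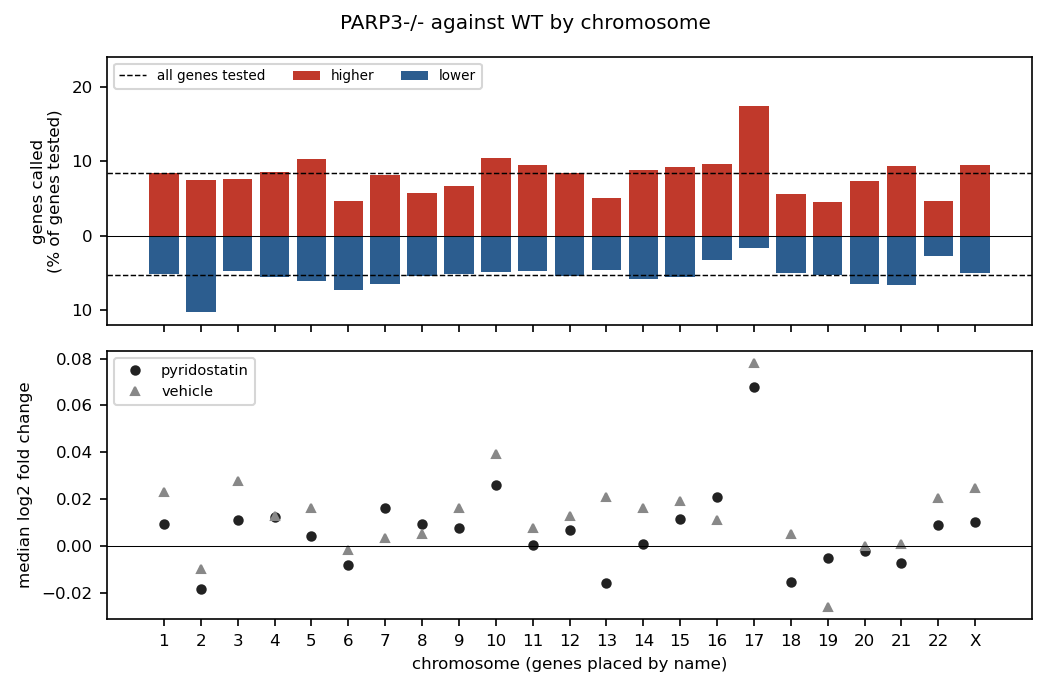
Upper panel, share of tested genes on each chromosome at an adjusted p under 0.05, higher (red, upward) or lower (blue, downward) in the libraries labelled PARP3-/-, with dashed lines at the shares over all genes tested. Lower panel, median log2 fold change of the genes on each chromosome with pyridostatin (circles) and vehicle (triangles). Chromosome 17 stands above the rest in both panels, with 17.4% higher and medians of 0.07 and 0.08. The upper panel shows pyridostatin only.

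Promoters were also searched for guanine runs, since pyridostatin acts on G4 DNA. A G-run motif was counted where at least 4 runs of 3 or more G, separated by 1 to 7 bases, lay on either strand of the window. It was present in 32.3% of windows of all genes tested, in 42.1% of those of genes that were higher at an adjusted p under 0.05 and in 29.4% of those that were lower. The median GC content of these windows was 65.2%, 67.2% and 64.0%, and its part in the difference was not tested. Among genes past both thresholds, 5 of 14 windows of those that rose held the motif and 3 of 18 of those that fell. COL6A2 (chr21:46097862-46098111, plus strand), which rose, carried 2 matches on the opposite strand, which appear as runs of C in the printed strand of the gene. NTRK3 (chr15:88256740-88256989, minus strand), which fell, carried 3 matches on its own strand. The windows are shown as examples of the motif in a gene of each direction.
COL6A2: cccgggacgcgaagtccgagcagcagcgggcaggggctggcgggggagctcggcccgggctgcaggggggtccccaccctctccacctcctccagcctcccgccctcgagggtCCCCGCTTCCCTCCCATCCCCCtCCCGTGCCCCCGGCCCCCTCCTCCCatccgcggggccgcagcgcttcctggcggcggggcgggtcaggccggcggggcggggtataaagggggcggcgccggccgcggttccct
NTRK3: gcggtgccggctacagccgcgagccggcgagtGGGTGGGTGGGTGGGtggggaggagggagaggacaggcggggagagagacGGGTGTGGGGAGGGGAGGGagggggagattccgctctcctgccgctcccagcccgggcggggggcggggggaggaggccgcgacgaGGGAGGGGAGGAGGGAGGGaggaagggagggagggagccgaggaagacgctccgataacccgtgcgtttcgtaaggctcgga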

How the data were processed

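Libraries were made from poly(A) RNA with a stranded kit and sequenced as single 75-base reads. The submitters' processing notes name bcl2fastq 2.16, STAR 2.5 and Cufflinks without a version, and 2 genome builds, hg19 and mm9, with no role for either. The deposited values are FPKM from Cufflinks, which the authors scaled by transcript length and mapped reads. The table has no read counts, and those behind the authors' own DESeq2 tests were not analysed here. Of its 25365 gene names, 28 read as dates after spreadsheet conversion and 2 are duplicated.

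The 3 libraries labelled PARP3-/- with pyridostatin were compared with the 3 wild-type libraries with pyridostatin. Genes averaging 1 FPKM or more across the 6 were fitted on log2(FPKM + 1) with limma 3.58.1 (R 4.3.3, trended eBayes) and the Benjamini-Hochberg adjustment was applied. The same fit was made for the 6 vehicle libraries, and an interaction term was fitted over all 12. PARP3 was also tested by an exact permutation test. The labels only number the libraries, and the study's methods give biological triplicates without saying what was repeated. Nothing in the sources used here says how many clones these libraries came from. The p-values therefore measure only the spread between these samples, which may not include differences between clones. Data were also simulated for 3 libraries against 3, with independent normal noise for each gene. There, 79.7%, 96.4% and 100% of genes changed by 0.5, 1 and 2 on the log2 scale were recovered, with 8 false calls. The simulation held no shifts shared by many genes of a library. It therefore checks the fit only, and its false calls do not measure the error in these libraries.

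Depth was estimated from the steps between the lowest FPKM values, over 145 genes, as 24500000 to 30600000 reads. Against wild-type replicate 1 as the reference, about 14.5% to 15.9% of low values in the other 5 libraries lay within 1% of a whole multiple of the common step, so whole reads could not be recovered and no count test was run. Replicate numbers are shared between the genotypes in the labels.

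The members and the 30 gene lists were chosen with earlier results of these data known. The genes named were PARP1, PARP2 and PARP3, every gene past both thresholds (values per library for the 12 largest changes each way), up to 4 members per list and direction with the smallest adjusted p, the 5 largest differences in FPKM each way, and the 5 smallest interaction p-values among genes past both thresholds. Other genes, such as those of promoters and chromosome runs, TNFAIP3, IL1B, ID1 and further collagen IV chains, were chosen after their values were seen. Names were matched to RefSeq (GRCh38.p14) for chromosomes and promoters. Alternatives were another pseudocount, other filters, quantile normalization, a shift to a common median, all libraries in 1 model, no trend, a replicate block and leaving out each library. The guide RNAs of the deletion are not shown, and results for some genes and 1 list are left out.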

Additional observations from a re-analysis of the deposited data

How the results depend on the processing

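Past both thresholds with pyridostatin there were 86 genes (41 higher, 45 lower) with a pseudocount of 0.1, 25 (11 and 14) with a mean of at least 5 FPKM, 9 (4 and 5) when limma tested against a fold threshold of 1, 179 (115 and 64) above 0.58 and 11 (4 and 7) above 1.5. With 1 library left out there were 49 to 58 (19 to 24 higher, 28 to 35 lower). At any fold change the replicate block gave 893 genes (598 and 295), and leaving out a library gave 724 to 1684 (478 to 1048 and 246 to 636). With vehicle, 84 genes (42 and 42) passed both thresholds with a pseudocount of 0.1, 22 (10 and 12) with a mean of at least 5 FPKM, and 43 to 49 (18 to 24 and 25 to 29) with a library left out. At any fold change there were 298 with a mean of at least 5 FPKM, 1129 with all 12 libraries in 1 model, 153 with the replicate block, and 163 to 1167 with a library left out. Interactions at an adjusted p under 0.05 numbered 1 with a pseudocount of 0.1 and 0 to 1 with a library left out. The difference in PARP3 was 0.685 to 0.934 FPKM with a library left out. The causes of these shifts were not tested beyond the fewer genes or samples that some settings leave. Of the single genes rerun, none changed the sign of its fold change. Medians of lists and chromosomes that lay near 0 did, such as the PARP family (0.01, and -0.01 after the median shift) and liver-type secreted proteins (0.01 and -0.02). Of the values for single genes and lists under alternatives 2205 stayed within the limits set, 322 lost a call and 21 moved.

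With pyridostatin, deviations of samples with the same replicate number correlated at -0.020 to 0.056, and those with different numbers at -0.074 to 0.067. With vehicle, the same numbers correlated at 0.040 to 0.088 and different numbers at -0.057 to -0.004. The numbers were not taken to pair the samples with either treatment, and the block stood only as an alternative. Leaving libraries out of the list and chromosome counts was chosen after seeing the data. Without counts, no interval could be set on single FPKM values, and small nucleolar RNAs rest on a few reads. The fold scale understates changes of genes near 1 FPKM. The labels name 1 line per genotype, so line and genotype cannot be told apart, and PARP3 RNA does not check the label.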

Other observations

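Below the fold threshold, 132 further genes passed the adjusted p of limma with a log2 fold change between 0.58 and 1 in either direction. Of these, 97 went upward and 35 downward, and 130 of the 132 had the same direction with vehicle, as had 69.1% of all genes tested. The genes named here were chosen after their values were seen and belong to none of the lists' called members. Those that were higher include BCL2A1 (0.98), a survival protein of the BCL2 family, IL7R (0.93), the interleukin-7 receptor, IL32 (0.80), a cytokine, and SOCS3 (0.67), which restrains cytokine receptors. HMGA2, a chromatin protein of embryonic tissue, stood at 17.1, 17.8 and 18.1 FPKM in the libraries labelled PARP3-/- and 10.4, 11.9 and 8.73 FPKM in wild type. The potassium channel gene KCNMA1 stood at 53.7, 52.8 and 56.0 FPKM in the libraries labelled PARP3-/- and 32.2, 33.4 and 34.1 FPKM in wild type. IGFBP7 (0.94) and IGFBP1 (0.82), which bind insulin-like growth factors or related ligands, were higher, as was the metallothionein gene MT1X (0.58). For HMGA2 and KCNMA1 the groups did not overlap, as for 35.3% of all genes tested.

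Those that were lower include RNF43 (-0.89) and AXIN2 (-0.62), feedback inhibitors of Wnt signalling, RSPO3 (-0.90), a secreted enhancer of the same pathway, and NOTCH3 (-0.93), a receptor. RNF43 stood at 3.09, 3.09 and 3.14 FPKM in the libraries labelled PARP3-/- and 6.71, 6.72 and 6.36 FPKM in wild type, and RSPO3 at 3.34, 3.53 and 3.43 FPKM in the libraries labelled PARP3-/- and 7.22, 8.04 and 6.67 FPKM in wild type. NUPR1, a stress-induced chromatin protein, had a log2 fold change of -0.82, and STAT4, a transcription factor of cytokine signalling, of -0.81.

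The 2 genes whose direction differed with vehicle were HNRNPA1P10 (-0.71 with pyridostatin and 0.14 with vehicle) and SRGAP2B (-0.79 and 1.13). Both have near-identical copies elsewhere in the genome between which reads could have been split, and neither interaction passed an adjusted p of 0.05 in limma.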
